A study of Rattus norvegicus with 16 samples.

Results

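The hippocampus of saline-infused control rats was profiled on 4 microarrays, 1 for each rat, out of 16 in the series. These were the arrays whose titles name them as controls, and every control array was used. The study followed 16 male Wistar rats after an infusion of 1 µl into the right amygdala, through a guide cannula implanted under anaesthesia at 5 weeks of age. The Fe rats received 100 mM FeCl3 in saline at pH 2.2, a model of posttraumatic epilepsy, and their right hippocampus was taken on day 5, day 15 or day 30 after the infusion (4 rats each). The 4 control rats received saline at pH 2.2 alone, and their right hippocampus was taken on day 15. The controls were therefore not untreated animals, because they carried the same cannula, anaesthesia and acid saline as the Fe rats. Per the series text, no seizure was seen in them. The tissue was the whole right hippocampus as a homogenate, which pools all of its cell types.

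The hippocampus is a folded sheet of excitatory pyramidal neurons in fields CA1, CA2 and CA3, with granule cells in the dentate gyrus, and it is known for its part in memory and as a frequent seat of limbic seizures. Inhibitory GABA interneurons are scattered among the excitatory cells, and astrocytes, oligodendrocytes, microglia and vessels make up the rest. Choroid plexus and meninges lie against its surface and can be taken along in a dissection.

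Total RNA was labelled with Cy3 and hybridised to 1-colour Agilent arrays. A level below is the log2 of the scanner's processed signal minus the log2 of that array's 75th percentile, so that a level of 0 is the 75th percentile itself. That percentile lay between 596 and 924 signal units on the 12 Fe arrays, and it was 781, 564, 864 and 553 on control arrays 1 to 4. The order of genes by level is an order of probe brightness, which depends on how well each probe binds, and not an order of RNA amounts. The arrays measured 36267 genes or unnamed transcripts, called features here, of which 12180 (33.6%) could be given a symbol. No spot was saturated. The controls sat at position 1 of 4 of the 7 slides, and the only other arrays at position 1 were 3 from Fe day 5.

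The brightest named genes of the control hippocampus served protein turnover, lipid transport, the cytoskeleton and the ribosome. Ubb, which encodes polyubiquitin, had levels of 8.21, 8.28, 8.13 and 8.35 in control rats 1 to 4 and was the brightest named gene, at rank 8 of all features. Ndrg2, a gene of astrocytes, followed with 8.14, 8.29, 8.01 and 8.36. Apoe, the lipid carrier secreted mainly by astrocytes, had 8.16, 8.26, 7.94 and 8.17. Ubb was above Apoe in each of the 4 rats, whereas Ndrg2 changed places with both from rat to rat.

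The next genes mixed neuronal and housekeeping roles. Nell2, a secreted glycoprotein of neurons, had levels of 7.95, 8.15, 7.90 and 8.06. Gabarapl1, a ubiquitin-like protein of autophagosomes, had 7.96, 8.07, 7.84 and 8.03. Tmsb4x, thymosin beta 4, which binds actin monomers, had 7.93, 7.94, 7.79 and 7.97. Control rat 3 was the lowest of the 4 for all of these 6 genes. Rps23 and Rplp1, both of the ribosome, averaged 7.86 ± 0.11 and 7.84 ± 0.07 (SD, n = 4). Cst3, the protease inhibitor cystatin C, averaged 7.85 ± 0.07, and Cox6a1, a subunit of cytochrome c oxidase, averaged 7.82 ± 0.06.

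The other 20 of the 30 brightest named genes, most of which are given here, lay between 7.25 and 7.67. Neurons were represented by Chgb, a chromogranin of dense-core vesicles (7.50), by Scn3b, an auxiliary subunit of voltage-gated sodium channels (7.53), by Mapk8ip1, a scaffold of JNK signalling (7.25), and by Cx3cl1, the membrane-bound chemokine fractalkine (7.42). Energy metabolism was represented by Atp5me of the ATP synthase (7.49) and Ndufb8 of complex I (7.31). Protein folding was represented by Hsp90ab1 (7.53) and Hsp90aa1 (7.39). Tubb2b, a beta tubulin, stood at 7.43 and Arf3, a small GTPase of the Golgi, at 7.32. Also among them were Pebp1, an inhibitor of Raf kinase (7.67), Slc22a17, a receptor for lipocalin (7.56), Zwint, a kinetochore protein (7.51), Tpt1 (7.46) and the ribosomal protein genes Rps6, Rpl8, Rpl14, Rpl35 and Rpl7a, at 7.28 to 7.50.

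**Figure D1:**
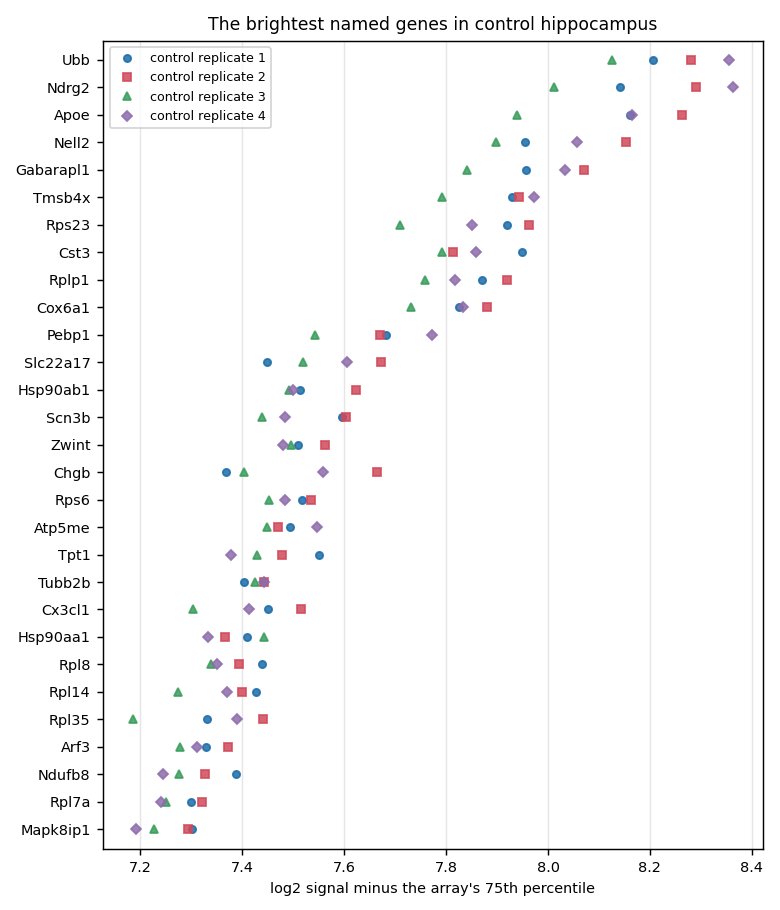
Level (log2 signal minus the 75th percentile of the array, horizontal axis) of the brightest named genes in each of the 4 control rats, ordered from the highest mean down. Each marker is 1 rat; Ubb, at the top, lies between 8.13 and 8.35, and neighbouring genes overlap.

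Only 64 of the 100 brightest features had a symbol, and the 7 features above Ubb had none. The 100 ran from a mean level of 9.21 down to 6.69, with the first feature outside at 6.68. Their spread between rats was small: the median SD was 0.072, against 0.12 for all 25498 genes above background in the 4 rats. Of these 100 features, 92 were also among the 100 brightest of Fe day 5, 92 of Fe day 15 and 93 of Fe day 30.

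Ribosomal protein genes were the family with the most members at the top. All 76 that were measured stood above background in the 4 control rats. Their median level was 5.50, against -3.28 for all features, and 16 of them were among the 100 brightest features. They also varied little, with a median SD of 0.06. Rps26, a protein of the small subunit, had levels of -4.72, -3.56, -2.57 and -2.39, far below that median.

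Vertebrate ribosomal protein mRNAs are known to begin with a C followed by a run of C and T letters, the terminal oligopyrimidine tract through which their translation is regulated. As examples, 4 bright members and the dim Rps26 are shown. Rps6 and Rpl8, which were brighter than Rpl14 and Rpl35, are not shown, and the brightest members were not counted apart. RefSeq sequence around the annotated transcript start (GRCr8, from 30 bases before the start to 20 bases from it) is printed 5′ to 3′. The longest C/T run at the start is in capitals.
Rps23 (chr2:23814487-23814536, + strand): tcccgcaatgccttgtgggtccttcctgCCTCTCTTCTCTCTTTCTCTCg
Rplp1 (chr8:71290853-71290902, - strand): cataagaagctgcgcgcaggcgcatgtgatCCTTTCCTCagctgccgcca
Rpl14 (chr8:129163590-129163639, + strand): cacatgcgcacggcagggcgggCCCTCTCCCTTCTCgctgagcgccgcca
Rpl35 (chr3:43165902-43165951, - strand): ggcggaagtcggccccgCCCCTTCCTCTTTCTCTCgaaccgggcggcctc
Rps26 (chr7:1643385-1643434, - strand): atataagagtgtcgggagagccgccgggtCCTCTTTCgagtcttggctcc
A run was counted when it began with C, held at least 7 letters that were all C or T on the sense strand, and overlapped the 10 bases on either side of the start. Such a run was found in 43 of the 60 ribosomal protein genes with an entry (71.7%), in 138 of the 817 other named genes among the brightest 5% (16.9%) and in 4401 of all 27457 genes with an entry (16.03%). The dim Rps26 held such a run as the 4 bright members printed here did.

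Other housekeeping families were bright too. Of 64 genes of the respiratory chain and ATP synthase, 63 were above background in the 4 rats, with a median level of 4.57. The exception was Cox8c, a cytochrome c oxidase subunit known from testis. All 15 translation factors were above background, with a median level of 5.27, and 14 of them were in the brightest 5% of features. All 14 glycolytic genes were above background, led by Pgam1 at 7.17 and Ldhb at 6.49. All 25 cytoskeletal genes were above background, with Actb at 6.86 ± 0.04. The 20 genes often used as references in PCR work had a median SD of 0.08 and a highest SD of 0.11. Gapdh averaged 6.13 ± 0.03 and Hprt1 4.90 ± 0.11 (SD, n = 4).

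Iron handling is of interest here because the Fe rats received iron. Of 14 genes of iron storage and transport, 12 were above background in the 4 control rats. The ferritin chains Ftl1 and Fth1 led with 6.40 ± 0.05 and 5.93 ± 0.02, and transferrin, Tf, which oligodendrocytes make in brain, averaged 4.85 ± 0.23. Hamp, which encodes the iron hormone hepcidin, was dim at -5.04 ± 0.19. Ftmt, mitochondrial ferritin, was not well above background in any control rat.

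All 14 markers of pyramidal and granule neurons were above background in the 4 rats, and 7 were in the brightest 5%. Nrgn, a calmodulin-binding protein of dendritic spines, averaged 6.20 ± 0.05, Camk2b, a subunit of CaM kinase II, 5.94 ± 0.10, and Snap25, a SNARE of transmitter release, 5.62 ± 0.11. Calmodulin and its partners were bright as a group, with 20 of 20 above background and a median level of 4.78, led by Calm2 at 6.93 ± 0.04 and Hpca, the calcium sensor hippocalcin, at 6.60 ± 0.15. All 21 genes of the synaptic vesicle were above background, with a median level of 2.35.

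The dentate gyrus and each CA field had markers above background, though not every marker was, and those named here are examples. For the dentate gyrus, C1ql2, a secreted synaptic organiser of granule cells, averaged 3.77 ± 0.27, Calb1 (calbindin) 1.06 ± 0.29 and Prox1, the transcription factor of granule cells, -2.67 ± 0.13. Tdo2, a tryptophan-degrading enzyme, was above background in 3 of the 4 rats. For CA1, all 7 markers were above background, with Wfs1 brightest at 2.95 ± 0.33. For CA2, Pcp4 averaged 4.80 ± 0.09 and Rgs14 3.04 ± 0.18. For CA3 and the hilus, 8 of 10 markers were above background: Chgb led, followed by Cpne4 at 5.06 ± 0.21, and Grik4, a kainate receptor subunit, averaged 1.21 ± 0.24. Iyd and Csf2rb were not well above background in any control rat.

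Interneurons were marked by peptides and by GABA synthesis. All 16 interneuron markers were above background in the 4 rats. Cck averaged 4.75 ± 0.12, Npy 3.97 ± 0.38 and Sst 3.95 ± 0.25, the 3 peptides that divide much of the interneuron population. Slc32a1, which loads GABA into vesicles, averaged 3.56 ± 0.12, and the GABA-synthesising enzymes Gad2 and Gad1 averaged 0.86 ± 0.16 and 0.15 ± 0.11. Of the 25 neuropeptide genes, 24 were above background, and the exception was Nmu, neuromedin U.

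Receptors and channels fell into members of the forebrain and members known from elsewhere. All 13 ionotropic glutamate receptor subunits were above background, led by Gria3 at 5.18 ± 0.05 and followed by Gria2 (3.74 ± 0.09), Grin1 (3.61 ± 0.04) and Gria1 (3.47 ± 0.17). All 8 metabotropic glutamate receptors were above background as well. Of 19 GABA receptor subunits, 14 were above background in the 4 rats, with Gabbr2 of the GABA-B receptor at 4.93 ± 0.08. The 4 not well above background in any rat were Gabra6, known from cerebellar granule cells, Gabrr1, known from retina, Gabre and Gabrp.

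Among 24 sodium, calcium and HCN channel subunits, 20 were above background, and the 4 dark ones were Scn4a of skeletal muscle, Scn11a of sensory neurons, Cacna1f of retina and Hcn4. Both receptors for corticosterone were above background, the mineralocorticoid receptor Nr3c2 at 2.85 ± 0.14 and the glucocorticoid receptor Nr3c1 at 1.26 ± 0.02. Esr1 and Esr2, the estrogen receptors, were not well above background in any control rat. Immediate early genes, which neurons switch on with activity, were above background in 31 of 32 cases. Jund averaged 4.59 ± 0.33, Arc 4.48 ± 0.24, Nr4a1 4.30 ± 0.15 and Fos 0.12 ± 0.27. Ptgs2 was above background in 3 of the 4 rats.

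Glia supplied several of the brightest genes. Of 21 astrocyte markers, 20 were above background in the 4 rats, their median level was 3.80, and 13 were in the brightest 5%. Beside Ndrg2, Apoe and Cst3 these included Sparcl1, a secreted synapse organiser, at 7.02 ± 0.10 and Slc1a3, a glutamate transporter, at 5.90 ± 0.08. All 16 markers of oligodendrocytes and myelin were above background. Mbp, myelin basic protein, averaged 5.66 ± 0.08. Of 22 markers of microglia and macrophages, 21 were above background, among them the lysosomal protease gene Ctss (3.91 ± 0.10) and C1qb of the complement system (3.51 ± 0.07). Cd163, a receptor of macrophages at vessels and meninges, was not well above background in any control rat. In a whole homogenate, fewer cells of a type and less RNA in each cell cannot be told apart.

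Markers of tissue around the hippocampus ranged from dark to bright. Of 16 choroid plexus markers, 10 were above background in the 4 rats, and the list's median level was -4.36. Ttr, transthyretin, the most abundant product of the choroid plexus, had levels of 0.04, -0.95, -1.96 and -2.64 in control rats 1 to 4. Enpp2 (2.23 ± 0.17) and Igf2 (2.01 ± 0.15) were brighter, and both are also made outside the choroid plexus. Kl, Prlr and Slc4a5 were not well above background in any control rat. All 12 markers of pericytes and smooth muscle, 14 of 16 of endothelium and 16 of 18 of meninges and fibroblasts were above background in the 4 rats. Among 10 markers of blood cells, Hbb-b1, a globin chain of red cells, averaged 4.80 ± 0.18.

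Most markers of other brain regions were above background, as were 76.3% of all features with a symbol. Of 12 cerebellar markers, 8 were above background in the 4 rats, and En2, Fat2 and Gabra6 were dark in every one. For the striatum, 11 of 13 were above background, with Drd1 at -5.85 ± 0.12 and Drd2 at -4.87 ± 0.09. For the hypothalamus, 12 of 14 were above background, among them Avp at -1.85 ± 0.11 and Oxt at -4.90 ± 0.04. Among 12 markers of newborn neurons and cycling cells, 11 were above background, with Dcx, doublecortin, at 1.54 ± 0.12.

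In all, 25506 features (70.3%) were well above background on the 4 control arrays and 8041 (22.2%) on none. Among features with a symbol the shares were 76.3% and 17.8%. Another 1151, 677 and 892 features were above background on 1, 2 and 3 of the arrays. The lowest level that the scanner software counted as well above background was -6.68, -6.56, -6.69 and -6.02 on control arrays 1 to 4. This is only a rough bound for a dark gene, because a dark probe could lie above it. Ikzf3, for example, was dark at -6.11 in Fe day 15 replicate 2, where the lowest such level was -6.48. The dark counts depend on the mark: with the scanner's mark for a positive and significant signal, 2378 features were dark in every control rat. Control array 4 had the highest such level and the lowest share of probes above background, 74.2%, against 76.6% to 76.7% on the other 3.

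Families known from other tissues were mostly dark. Of 1086 olfactory receptor genes, which odour-sensing neurons of the nose use one at a time, 771 were dark in every control rat and 155 were above background in all 4, and the median level was -8.21. The brightest of them, Or4f7c, had levels of 0.91, 0.98, 0.89 and 1.02, above the 75th percentile of each array. Of 69 vomeronasal and taste receptors, 57 were dark in every rat. Of 15 Hox genes, which pattern the hindbrain, spinal cord and trunk, 9 were dark in every rat and 2 were above background in all 4. Of 41 defensins, seminal and prolactin family genes, 31 were dark in every rat.

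Tissue markers gave a mixed picture. Of 15 genes of retina and nose, 11 were dark in every control rat. Of 20 liver genes, 9 were dark in every rat, among them Cyp7a1, the rate-limiting enzyme of bile acid synthesis, and the fibrinogen chains Fgb and Fgg. Of 58 cytochrome P450 genes, 25 were dark and 22 were above background in the 4 rats. Of 92 interleukins and chemokines, 37 were dark and 41 above background, from Cx3cl1 down. Of 15 crystallins, 6 were dark, whereas Crym, a thyroid hormone-binding protein of brain, averaged 6.31 ± 0.16 and Cryab, a small heat shock protein, 4.20 ± 0.27.

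**Figure D2:**
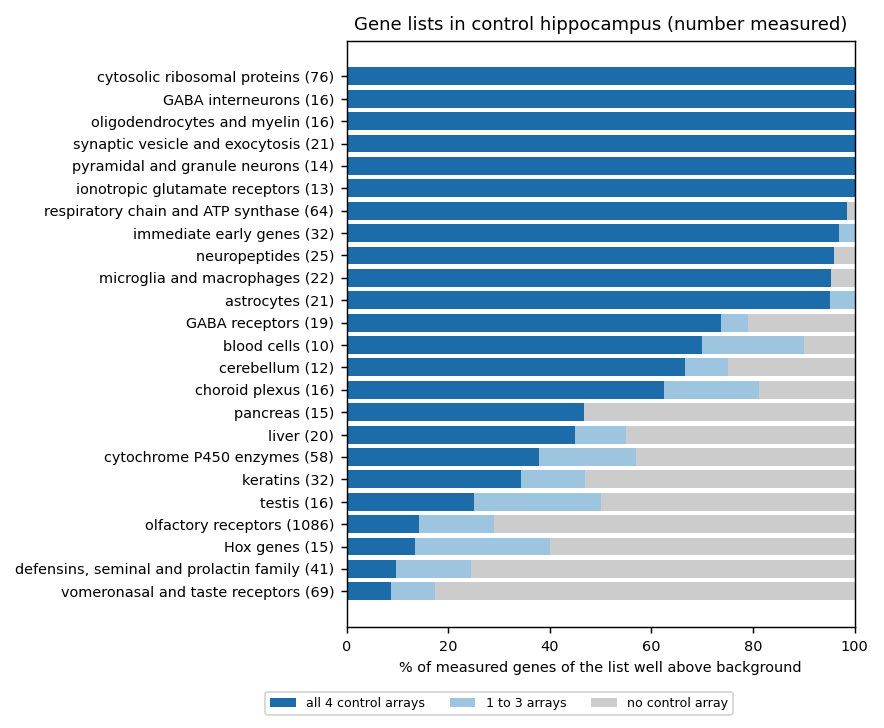
Share of the measured genes of each list (number in parentheses) that were well above background on all 4 control arrays, on 1 to 3 of them or on none, in percent. The neuronal, glial and housekeeping lists fill the top of the plot and the olfactory, vomeronasal, Hox and defensin lists the bottom, where 771 of 1086 olfactory receptors were on no control array.

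Most genes differed little between the control rats. Over 25498 genes above background in the 4 rats the median SD was 0.12, 10% of genes lay below 0.046 and 10% above 0.32. An SD above 0.5 was found for 749 genes (2.94%) and above 1 for 92. The spread was smaller for brighter genes. With the genes in 5 equal bins from dim to bright, the median SD was 0.226, 0.154, 0.119, 0.0938 and 0.0729. For 231 probes printed in 10 spots, the median SD between rats was 0.121, against a median SD of 0.0465 to 0.0510 between the 10 spots within an array.

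The steadiest named gene was Scly, selenocysteine lyase, at 2.58 in each of the 4 rats. The next were Ptpn21, a tyrosine phosphatase, Bet1l, a Golgi SNARE, Rpl5, with 5.17, 5.18, 5.19 and 5.18, and Hp1bp3, a heterochromatin protein.

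**Figure D3:**
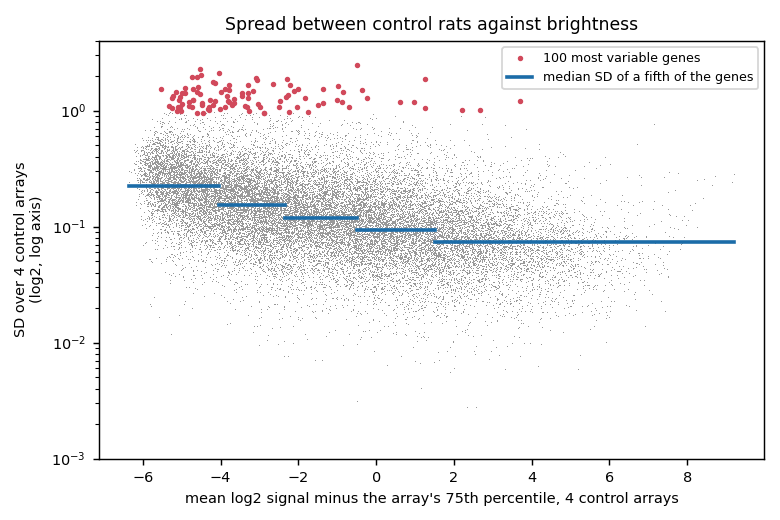
SD over the 4 control rats (log2, log axis) against mean level (log2 signal minus the 75th percentile) for 25498 genes, with the 100 most variable in red. The bars give the median SD of each of 5 equal bins of genes, which is 0.226 at the dim end and 0.0729 at the bright end.

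The 100 most variable features were mostly dim. Their mean levels had a median of -3.78, and 83 lay below the median level of the genes above background. The last member had an SD of 0.957 and the first feature outside 0.952. Only 32 had a symbol. With normexp background correction, the SDs of all 30 named below were smaller, 21 of them by more than 1.5 times (median ratio 0.528). The array farthest from the other 3 was control rat 1 for 21 of them, rat 2 for 22, rat 3 for 28 and rat 4 for 29.

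Some of these genes were high in a single rat. Krt5, a keratin of basal epithelium, lay between -6.22 and -5.00 in the 12 Fe rats and had levels of -5.69, -5.81, -5.51 and -1.11 in control rats 1 to 4. Car3, a carbonic anhydrase of muscle and fat, had -5.03, -5.31, -4.95 and -0.92. Both were high in control rat 4 alone. Cers4, a ceramide synthase, was high in rat 3 alone, with -5.33, -5.57, -2.43 and -5.51. Emp1, an epithelial membrane protein, was high in rat 1 alone (-0.66, -3.25, -2.93 and -3.07), as was Mepe, a bone matrix protein (0.16, -2.05, -2.01 and -2.09).

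Others fell into pairs of rats. Ephx2, the soluble epoxide hydrolase, had -4.79, -4.68, -1.35 and -1.51. Slc5a7, the choline transporter of cholinergic neurons, had -2.72, -1.97, -4.75 and -4.37. Spp1, osteopontin, had -1.60, -4.98, -1.38 and -4.28. The high pair was rats 3 and 4 for Ephx2, rats 1 and 2 for Slc5a7 and rats 1 and 3 for Spp1.

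Further named genes are given by their levels. Sncg, gamma-synuclein, was low in rat 1 alone, with -1.54, 1.77, 2.42 and 2.36. Alb, albumin, had -3.44, -0.17, -3.08 and -1.38. Ifi27, an interferon-inducible gene and the brightest of the 30 named, had 2.28, 3.68, 1.45 and 3.27. Olfactory receptors supplied 3 of the 30, Olr1198, Or5p66 and Or2t48. The 30 named genes had SDs from 1.00 for Ifi27 to 2.28 for Krt5. Other probes existed for Acsm5, Tbx4, Pimreg, Alb and Emp1, and except for that of Acsm5 they were not well above background on any control array.

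**Figure D4:**
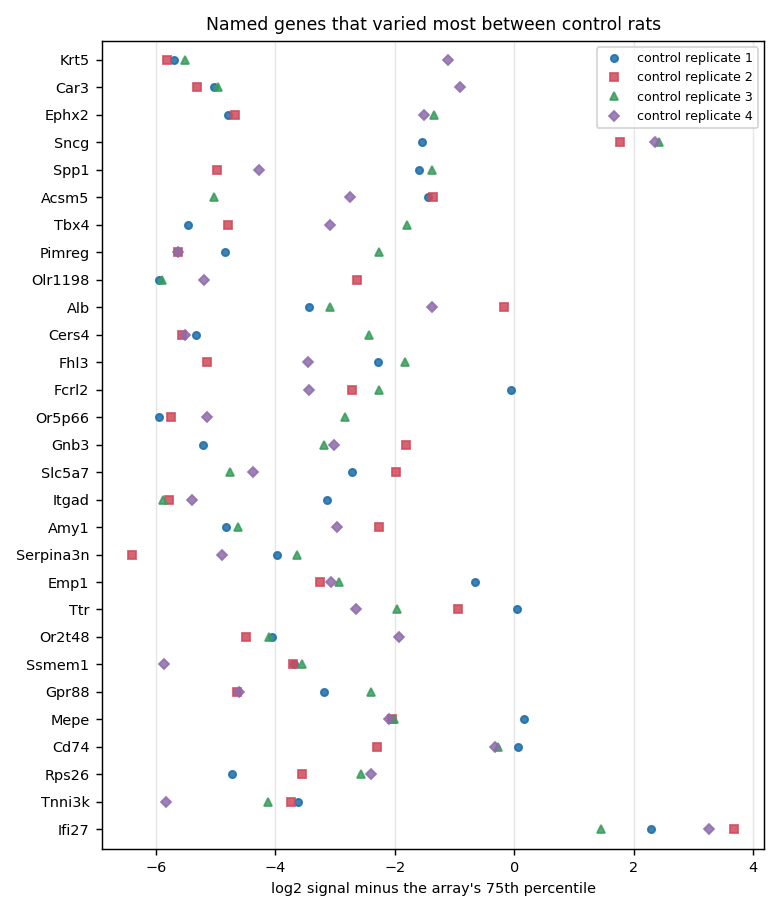
Level (log2 signal minus the 75th percentile, horizontal axis) of the named genes with the largest SD over the control rats, 1 marker for each rat. Krt5 and Car3 are high in control rat 4 alone, at -1.11 and -0.92, and the rat that stands apart changes from gene to gene.

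Because dim genes fill this list, genes with a mean control level above 0 were also ranked by SD, a choice made after the data were seen. Of the 100 highest among these 8829 genes, 7 were in the first list. Ndrg4, a brain member of the Ndrg family, had levels of 7.39, 7.61, 6.03 and 7.58, low in rat 3 alone. Igf2r, the receptor that clears IGF2, was low in the same rat, with 3.10, 3.22, 2.04 and 3.12. Zeb2, a transcription factor, had 3.07, 3.89, 2.04 and 2.20, and Unc5d, a netrin receptor, had 3.04, 1.67, 1.21 and 2.76. Unc5d had a second probe, which was flat at -1.85, -1.55, -1.99 and -1.74.

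Genes used as cell markers or listed as neuropeptides were also in the brighter group. Gfap, the filament protein of astrocytes, had 0.96, 2.11, 1.74 and 0.75, although the 20 astrocyte markers above background had a median SD of 0.09. Calb2, calretinin, which is in the lists of several cell types, had 2.39, 0.77, 1.54 and 1.03. Grp, gastrin-releasing peptide, had 1.85, 0.27, 0.12 and 0.54, and Gal, galanin, had 0.89, 0.88, 1.59 and -0.02.

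Cd74 and a pair of class II genes, which present antigen, were lowest in control rat 2. Cd74, the invariant chain that class II molecules need, ranged from -2.43 to 3.42 in the 12 Fe rats, with a median of -1.31, and had levels of 0.06, -2.29, -0.27 and -0.32 in control rats 1 to 4. RT1-Da had -2.02, -4.05, -2.42 and -2.50, and RT1-Db1 had -1.65, -2.51, -1.80 and -1.88. RT1-Bb was more even, with -2.18, -2.24, -2.14 and -1.96, and RT1-Ba was not well above background in any control rat. Over the 55 genes of the major histocompatibility complex and the interferon response above background, the median SD was 0.18, and rat 3 was lowest for 25 and rat 2 for 21.

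Class II genes are known to share promoter elements, 1 of them a Y box built on the letters ATTGG, read on either strand. The 100 bases before the start of 3 of them are printed from RefSeq (GRCr8), 5′ to 3′, with ATTGG and its reverse complement CCAAT in capitals, because this list holds both genes that were low in rat 2 and an even one.
RT1-Da (chr20:4515315-4515414, + strand): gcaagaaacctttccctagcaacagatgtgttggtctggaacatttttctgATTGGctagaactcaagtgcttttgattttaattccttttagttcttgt
RT1-Db1 (chr20:4560163-4560262, - strand): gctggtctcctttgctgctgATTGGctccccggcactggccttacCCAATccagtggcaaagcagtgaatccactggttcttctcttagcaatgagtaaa
RT1-Bb (chr20:4604119-4604218, - strand): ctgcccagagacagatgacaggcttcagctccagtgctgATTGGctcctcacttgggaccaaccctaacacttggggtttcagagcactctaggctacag
The count took Cd74 and the class II genes RT1-Da, RT1-Db1, RT1-Bb, RT1-Ba and RT1-DMa, and other class II genes were not counted. The letters were present in 5 of these 6 genes (83.3%), with Cd74 the one whose window did not hold them. Of all 27457 genes with an entry, 5113 (18.6%) held the letters. RT1-Bb holds them and was even between the rats.

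Lists of genes differed in which control rat was lowest or highest. A list's score in a rat is the median, over its members above background, of the difference from the member's own control mean. Myelin and oligodendrocyte genes scored 0.10, -0.26, 0.18 and -0.00 in control rats 1 to 4. Rat 2 was the lowest for 14 of the 16 genes and rat 3 the highest for 13, where over all genes rat 2 was lowest for 24.5% and rat 3 highest for 26.2%. Mal, a lipid raft protein of myelin, had 2.38, 1.92, 3.00 and 2.44, and Mog, a myelin surface protein, had 3.66, 3.11, 3.63 and 3.33. Microglia showed the same pair of rats, with rat 2 lowest for 12 of 21 genes and rat 3 highest for 11. Lists that mark no cell type did so in part: rat 3 was highest for 37 of 59 ubiquitin and proteasome genes, with rat 4 lowest for 24 and rat 2 for 21, and for heat shock and folding rat 3 was highest for 11 of 18 and rat 2 lowest for 9.

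Genes of vessels and of the choroid plexus ran another way. Rat 1 was the highest for 10 of 14 endothelial genes, for 8 of 12 pericyte genes and for 8 of 10 choroid plexus genes, where over all genes rat 1 was highest for 18.9%. Their scores in rats 1 to 4 were 0.16, 0.08, -0.16 and -0.05 for endothelium and 0.18, 0.05, -0.19 and 0.01 for pericytes. Cldn5, a tight junction protein of brain endothelium, had 2.76, 2.59, 2.27 and 2.34. Lists that mark no vessel did so in part. Rat 1 was highest for 36 of 76 ribosomal protein genes and 30 of 63 genes of the respiratory chain and ATP synthase. It was highest for 11 of 59 ubiquitin and proteasome genes. Immediate early genes were highest in rat 1 for 16 of 31 and lowest in rat 3 for 14, with scores of 0.09, -0.05, -0.08 and 0.04. Genes of the major histocompatibility complex and the interferon response were highest in rat 4 for 31 of 55. These genes were not selected for independence, and members of a list in the same RNA share that RNA.

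Some genes had separated levels that cut across the groups of the study, a property looked for after the data were seen. S100b, a calcium-binding protein of astrocytes, was above background in 11 of the 16 rats, at -3.10 to -1.33, and not well above background in the other 5, at -9.10 to -8.65. The upper level held 3 control rats, 3 Fe rats of day 5, 2 of day 15 and 3 of day 30, and control rat 3 was the low one, at -8.65 against -2.84, -3.10 and -2.90. In all, 14 of 36267 features had a gap of more than 3 in measured log2 signal, dark probes included, with control rats on both sides, and the other named ones were Cdc25a, a cell cycle phosphatase, Foxa2, a transcription factor, and the olfactory receptor Or10ag59.

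Among 24849 genes above background in all 16 rats, 112 had a gap of more than 1 that was also wider than the spread on either side of it, and 36 of those had control rats on both sides. Sncg had a gap of 5.11-fold with 8 rats on each side, and the upper side held 3 control rats, 2 Fe rats of day 5, 0 of day 15 and 3 of day 30. Ephx2 had a gap of 4.98-fold with 11 rats above it, of which 2 were controls. Other named genes were Alb, Synrg, Sacm1l, Iqcm, Retsat, Prkab2 and Smoc2.

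**Figure D5:**
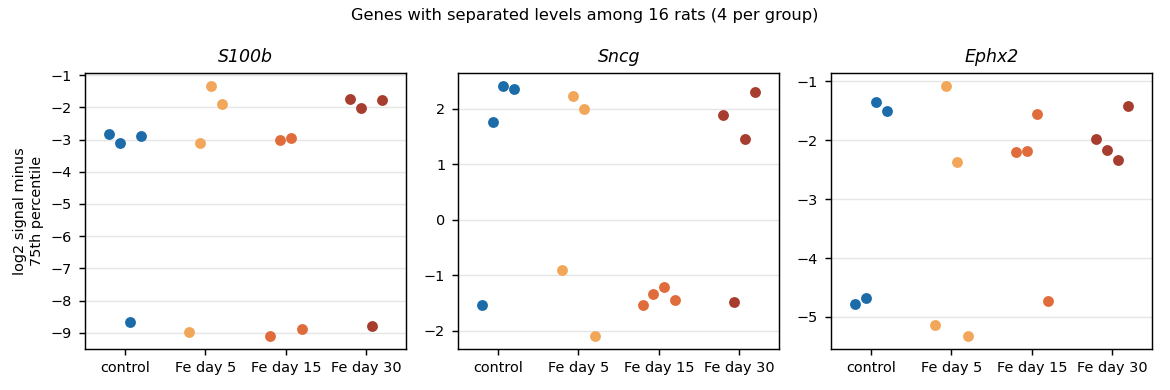
Level (log2 signal minus the 75th percentile) of S100b, Sncg and Ephx2 in each rat, 4 rats in each group. Each panel has an empty band between its levels, with control rats on both sides, as for Ephx2 between -4.68 and -2.37; the lower S100b points were not well above background.

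Genes variable between control rats were mostly variable between Fe rats too. The pooled SD within Fe groups, a measure from arrays that did not choose the genes, had a median of 0.792 for the 100 most variable features, against 0.195 for all genes. These features were mostly dim, and the comparison was not matched for brightness. The median pooled SD within Fe groups was 0.305 in the dimmest of the 5 equal bins and 0.135 in the brightest. Of the 100, 73 lay in the top 10% of genes by that SD and 5 lay below its median. The overlap with each Fe group's own 100 most variable features was 10 for day 5, 14 for day 15 and 9 for day 30. The median SD was 0.173 within Fe day 5, 0.173 within Fe day 15 and 0.178 within Fe day 30, against 0.12 within the controls.

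In the main processing, control rats lay closer to one another than Fe rats did, but this did not hold with another background correction. The distance of an array from its group was taken as the median absolute difference in level from the mean of the other 3 arrays of the group. It averaged 0.162 ± 0.028 over the 12 Fe arrays and 0.112 ± 0.015 over the 4 control arrays (SD), a difference of 0.0505 (exact permutation test, two-sided, p = 0.0044, 1820 splits). Over arrays at position 1 alone, 3 Fe day 5 arrays averaged 0.153 and the 4 control arrays 0.112, a difference of 0.0413 (exact permutation test, two-sided, p = 0.057, where 35 splits allow no p below 0.029). With another background correction the difference was 0.00995 (exact permutation p = 0.50), and without control replicate 1 it was 0.0350 (exact permutation p = 0.059). Exact here means that every split was counted. The distances within a group share arrays and were not recomputed for the splits, so these p-values are approximate.

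No gene passed an adjusted p under 0.05 for the Fe mean or for Fe day 15 against control. The test was limma over 26564 genes with Benjamini-Hochberg adjustment, and a p-value here covers only how far these rats differed from one another. The mean of the 3 Fe groups against control gave 0 calls (0.0%), with 3394 genes at an unadjusted p under 0.05, of which 1320 were higher and 2074 lower in Fe. Fe day 15 against control, the pair taken on the same day, gave 0 calls (0.0%) and 3054 genes at an unadjusted p under 0.05. Fe day 5 gave 0 calls (0.0%) and 2746 such genes. Fe day 30 gave 2 calls (0.00753%), both lower in Fe and both on transcripts without a symbol, and 2064 genes at an unadjusted p under 0.05. The 2 differences were -1.31 ± 0.16 and -0.76 ± 0.10 (log2, SE, limma adjusted p = 0.026 for both), lower in all 4 Fe day 30 rats than in all 4 control rats. With array weights in the fit, 77 genes passed for the Fe mean and 182 for Fe day 15. The comparisons by day share the 4 control arrays.

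None of the 100 brightest and none of the 100 most variable features was called in any of these comparisons. At most 2 of 26564 genes were called in a comparison, so this says nothing particular about these features. The Fe mean gave 0 calls over all genes, so no list could have a member called. Immediate early genes had a median Fe mean minus control difference of -0.30 over 32 tested, against -0.0069 for all genes tested. The score of the list ran from -0.46 to -0.31 in Fe day 15 rats, below the -0.08 to 0.09 of the control rats. A score is taken from the control mean, so control scores lie close to it by construction. This range is for Fe day 15 alone, and how many other lists were separated in this way was not counted.

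Choroid plexus genes were high in single Fe rats. The choroid plexus score was 2.31 in Fe day 5 replicate 3 and 5.45 in Fe day 30 replicate 3, against a highest score of 0.19 in controls. Ttr itself ranged from -2.25 to 7.78 over the 12 Fe rats, with the highest value in Fe day 30 replicate 3, against -2.64 to 0.04 in controls. The myelin score ran from -0.28 to 0.66 in Fe day 5 rats, from -0.13 to 0.55 in Fe day 15 rats and from -0.20 to 0.18 in Fe day 30 rats, against -0.26 to 0.18 in control rats.

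The genes of lowest p with a symbol are given with their values, although none passed. Bdnf, the neurotrophin that neuronal activity induces, averaged 0.43 over Fe rats and 0.87 over control rats, a difference of -0.44 ± 0.09 (SE, limma adjusted p = 0.23). Its levels were 0.03, 0.28, 0.48 and 0.02 in Fe day 15 rats and 0.82, 0.77, 1.07 and 0.81 in control rats. Bdnf was picked for a low p on these same arrays, which favours levels that lie apart, so its values are a description. The day 15 difference was -0.67 ± 0.11 (SE, limma adjusted p = 0.086). On the 4 slides that held a control, the Fe minus control difference was -0.62 to -0.16.

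Slmap, a membrane-associated protein of muscle and brain, differed by -0.44 ± 0.07 for the Fe mean (limma adjusted p = 0.15), and Stat6, a transcription factor of cytokine signalling, by -0.70 ± 0.13 (limma adjusted p = 0.17). In the other direction, Rrad, a small GTPase that restrains calcium channels, differed by 0.34 ± 0.07 (limma adjusted p = 0.22), and Trim47, a ubiquitin ligase, by 0.56 ± 0.12 (limma adjusted p = 0.23). Dok3, an adaptor of immune cell signalling, had -1.50, -1.64, -1.63 and -1.54 in Fe day 15 rats and -2.42, -2.48, -2.66 and -2.66 in control rats, a difference of 0.98 ± 0.17 (SE, limma adjusted p = 0.086). Within slides, Slmap and Stat6 were lower and Rrad and Trim47 higher in Fe than in control on each of the 4 slides, whereas Arhgap17, also among the genes of lowest p, was higher on 3 and lower on 1. These genes were chosen on the same arrays, and within a slide group and position cannot be told apart.

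Few genes were dark in every control rat and above background in every rat of an Fe group. There were 23 such features in Fe day 5 (0.286% of the 8041 dark ones), 8 in Fe day 15 (0.0995%) and 12 in Fe day 30 (0.149%), with 6, 1 and 2 carrying a symbol. They were picked for this difference, so their values are a description with no test. Cdh1, the epithelial cadherin, had -6.18, -2.25, -3.65 and -5.09 in Fe day 5 rats, against measured signals of -7.68, -8.88, -8.17 and -6.18 in control rats. Slpi, a protease inhibitor of epithelia, had -6.64, -3.57, -3.78 and -6.02 in Fe day 5 rats, against -7.39, -7.30, -7.22 and -6.28 in control rats. F13a1, a clotting factor subunit of macrophages, had -5.97, -3.25, -4.61 and -6.43 in Fe day 5 rats, against -7.29, -7.24, -7.00 and -6.27 in control rats. For all 3 genes Fe day 5 replicates 2 and 3 were the highest of their group, and the measured signal of control rat 4 was above that of at least 1 Fe day 5 rat.

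Markers of meninges and choroid plexus were high in the same Fe rats. The score of 16 genes of meninges and fibroblasts was 0.06, 3.93, 2.26 and 0.13 in Fe day 5 rats, against -0.08 to 0.11 in control rats. The score of 10 choroid plexus genes was 0.39, 1.46, 2.31 and 0.17 in Fe day 5 rats, against -0.07 to 0.19 in control rats. In Fe day 30 replicate 3, where Cdh1, Slpi and F13a1 were the highest of their group at -2.90, -3.45 and -3.99, these scores were 3.23 and 5.45. The part of these tissues in the results was not tested.

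The other named features dark in every control rat were Mob4, Itga3 and Hes2 in Fe day 5, Bpifc in Fe day 15 and Or52n4 and Rnf151 in Fe day 30, with group means between -6.16 and -5.28. The reverse, dark in an Fe group and above background in every control rat, held for 0 features of Fe day 5, 3 of Fe day 15 and 1 of Fe day 30. The only one with a symbol was Ikzf3, a transcription factor of lymphocytes, at -6.95, -6.11, -5.81 and -6.96 in Fe day 15 rats and -5.13, -5.58, -5.03 and -5.37 in control rats.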

How the data were processed

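RNA of 16 hippocampi was measured on 16 Agilent 1-colour arrays, grouped by the labels. Per the submitters' processing notes, Agilent Feature Extraction 9.5 turned the images into numbers. The deposited scanner files give, per the file headers, a background-subtracted and spatially detrended intensity for each spot, not scaled between arrays, with marks for spots above background, saturated or non-uniform. The intensity values in the deposited series table were equal to that signal in 100% of 720288 entries (relative tolerance 1e-06) and were not used further. Number of arrays and signal over background limit the precision.

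Each array held 45018 spots, 1639 of them control spots. Spots that carried a non-uniform or population outlier mark were dropped (122 probes lost), spots of 1 probe were averaged, log2 was taken and the 75th percentile of the array subtracted, which left 40890 probes. Symbols came from RefSeq accessions (15141 probes, 37.0%). A gene with several probes was represented by the probe of highest mean level over the 16 arrays, and it counted as above background on an array where any of its probes was. Ranks of spread and the limma filter used the mark of the representing probe alone. Differences were tested with limma 3.58.1 (R 4.3.3) over genes above background in every rat of 1 group or more, in a one-way model of the 4 groups. Python 3.11.15, pandas 2.3.3, numpy 2.4.6 and matplotlib 3.10.9 served for the rest, and the limma step was tested on simulated data.

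Levels, ranks, spreads and marks of the controls chose the genes described, so they carry no test. Named were the 30 brightest, 30 most variable and 5 steadiest genes with a symbol, list members, and the 5 genes of lowest p in each direction; some of these genes are not reported here. The genes and lists were chosen with earlier results of these data known. The alternative background correction (normexp, offset 50) used the median spot and local background intensity of the deposited files, because the mean spot intensity was not used here. Other alternatives were quantile normalization, another detection mark, other filters, slide and replicate blocks, array weights and leaving out each array.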

Additional observations from a re-analysis of the deposited data

Results flagged for a closer look

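Among 152 sets of 4 values tested, 18 held a value far from the others of its group. Chance gives about 1 in 20, but many of these genes were chosen for a large spread or a gap over the same arrays, so their number cannot be read against it. Most were single genes in 1 control rat. Krt5 at -1.11, Car3 at -0.92 and Ssmem1, low at -5.87, stood apart in control replicate 4. Emp1 at -0.66 and Mepe at 0.16 were high, and Sncg at -1.54 was low, in control replicate 1. Cers4 at -2.43 was high in control replicate 3, where Ndrg4 at 6.03, Igf2r at 2.04 and S100b at -8.65 were low. In control replicate 2, Cd74 at -2.29 was low and Hsp90ab1 at 7.62 was high.

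Scores of 3 lists stood apart in 1 control rat: dentate gyrus granule cells at 0.09 and monoamine and acetylcholine receptors at 0.09, both highest in control replicate 4, and blood cells at -0.26, lowest in control replicate 2. The share of probes above background was low at 75.7% in Fe day 30 replicate 1 and at 74.2% in control replicate 4. The distance from its own group was high for Fe day 30 replicate 3, at 0.227. Over all 25498 genes the same criterion was met by 1399 (5.49%), with the outlying array control replicate 1 for 230, replicate 2 for 311, replicate 3 for 416 and replicate 4 for 442.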

How the results depend on the processing

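No result changed its direction under the alternatives run. Of the 100 most variable features, 60 stayed with normexp background correction, 37 with the mark for a positive and significant signal in place of well above background, 71 to 78 when a control was left out, and 7 among genes of mean level above 0 (added after seeing the data). Of the 100 brightest, 94 stayed with normexp, 79 with the mean of a gene's probes and 97 to 99 when a control was left out. With the other mark, 2378 features were dark in every control and the median SD was 0.142. Leaving out a control gave 25593 to 26083 features above background in the rest, 8204 to 8411 dark and a median SD of 0.108 to 0.124, the lowest without control replicate 3. Calls for the Fe mean were 3 with quantile normalization, 1 with no filter on dim probes, 77 with array weights and 0 to 2 when an array was left out (lowest adjusted p 0.00029 to 0.63). For Fe day 15 they were 1 with no filter, 182 with array weights, 2 with only the compared groups in the fit and 0 to 10 when an array was left out, the 10 without Fe day 15 replicate 4. With slide as a block both gave 0. With the replicate number as a block each gave 1 call, and same-numbered arrays of different groups correlated at -0.41 to 0.39 (24 pairs), so the numbers do not pair the rats. The Fe minus control difference in distance was 0.00995 with normexp (exact permutation p = 0.50), 0.0413 at position 1 (p = 0.057, exact, added after seeing the data) and 0.0350 to 0.0580 when an array was left out, the lowest without control replicate 1. The cause of these changes was not tested. Of 270 values for levels of the 30 brightest named genes, 60 moved by more than 1 SD, and of 270 SDs of the 30 most variable, 45 moved by more than 1.5 times, 21 of them with normexp, which made all 30 SDs smaller. Signal over background limits the dim genes, where the spread was largest.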

Other observations

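Some markers of organs outside the brain were above background in the control hippocampus. Over all features with a symbol the share above background in the 4 control rats was 76.3%, and each list in this paragraph had a lower share. Of 16 genes of heart and skeletal muscle, 11 were above background in the 4 control rats, among them the myosin genes Myh7 at 0.69 ± 0.25 and Myh6 at 0.41 ± 0.18 (SD, n = 4), and 3 were dark in every rat: Ckm, Myod1 and Nppb. Of 14 kidney genes, 10 were above background, and Nphs1, a podocyte gene, was among the 4 dark ones. Of 15 pancreas genes, 7 were above background, including the insulin genes Ins1 at -2.26 ± 0.74 and Ins2 at -5.86 ± 0.33, and 8 were dark. Of 16 testis genes, 4 were above background, with Odf2 brightest at 1.10 ± 0.03, and 8 were dark. Of 32 keratins, 11 were above background and 17 dark. Of 21 UDP-glucuronosyltransferases and sulfotransferases, 7 were above background, led by the brain sulfotransferase Sult4a1 at 4.02 ± 0.06, and 13 were dark.

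Among the remaining brain lists, 7 of 10 pituitary genes were above background, with Pomc at 0.10 ± 0.17 and Gh1, growth hormone, at -5.50 ± 0.20, while Prl, prolactin, and Pou1f1 were dark in every control rat. For midbrain and hindbrain monoamine neurons, 8 of 11 were above background, with Th, tyrosine hydroxylase, at -4.98 ± 0.47 and Tph2, the neuronal tryptophan hydroxylase, at -3.68 ± 0.32. For the thalamus, 8 of 10 were above background, and Rgs16 was among the dark ones. Of 7 neocortex layer markers, all were above background, with Etv1 at 3.54 ± 0.32.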
